A study of Homo sapiens with 4 samples.

Results

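The mRNAs described here encode the hnRNP proteins, the serine/arginine-rich (SR) proteins and the TRA2 proteins, a group of splicing regulators. Members were taken by symbol, as every identifier that starts with HNRNP, every SRSF followed by a number, and TRA2A or TRA2B. This gave 45 of the 26490 rows of the table. Of these, 25 were hnRNP genes, 12 SR genes and 2 TRA2 genes, 4 carried pseudogene names and 2 were an antisense and a read-through transcript.

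Binding of the DEAH-box helicase DHX36, which unwinds G-quadruplexes, was mapped by PAR-CLIP in human embryonic kidney HEK293 cells. In this method, crosslinks between 4-thiouridine-labelled RNA and protein are read as T-to-C conversions. One cell line carried HA-Flag-DHX36-iso2 (FH-DHX36) and the other HA-Flag-DHX36-iso1-E335A (FH-DHX36-E335A), a helicase-dead form. Both transgenes were tetracycline-inducible and were switched on with 500 ng/ml tetracycline for 15 h before 5 min of UV light at 365 nm, and the endogenous DHX36 gene was left in place in both lines. Isoform and mutation differed together, so their parts in any difference between the lines cannot be told apart. Each line had 2 replicates, but the table holds 1 pooled value per gene and cell line. The spread between replicates is therefore unknown and no difference between the lines was tested. A cluster is a group of overlapping reads called as a binding site, and crosslinked reads are the reads inside clusters. Depth differed 4.05-fold, with 2160413 crosslinked reads in 16742 clusters for FH-DHX36 and 8752127 in 60208 clusters for FH-DHX36-E335A, so reads were compared as shares of each total. The 95% Wilson intervals given below cover counting error alone, because overlapping reads are not independent molecules.

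hnRNP proteins coat nascent transcripts through RNA recognition or KH domains and often repress exon inclusion, whereas SR and TRA2 proteins bind exonic enhancers and recruit the splicing machinery. Several members of both families shuttle to the cytoplasm and also act in mRNA export, stability and translation. Many of their genes contain conserved alternative exons or introns whose use exposes the transcript to nonsense-mediated decay, by which the proteins limit their own synthesis. Glycine is encoded by GGN codons, and glycine-rich stretches are a known feature of the A/B and H hnRNP proteins and of the TRA2 linker.

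Because DHX36 acts on guanine runs, the canonical transcripts of the members were searched on the sense strand for at least 4 runs of 2 or more guanines separated by gaps of 1 to 7 nt. The matches printed below were taken from the GRCh37 genome. They were chosen as examples of a coding repeat in a glycine-rich hnRNP or TRA2 mRNA, and of 3′ UTR matches in mRNAs that the results turn on. Capitals mark the guanine runs. The table lists no cluster positions, so no match is tied to a cluster.
HNRNPA0, CDS, chr5:137089067-137089095, minus strand: GGtGGttacGGcGGcGGcGGaGGcGGcGG
HNRNPH1, CDS, chr5:179043150-179043175, minus strand: GGGGGttacGGaGGcGGctacGGtGG
HNRNPM, CDS, chr19:8551133-8551159, plus strand: GGGcctGGccatGGGtGGcGGtGGcGG
TRA2B, CDS, chr3:185637257-185637283, minus strand: GGaGGaGGtGGaGGaGGaGGaGGatGG
HNRNPUL2, 3′ UTR, chr11:62481603-62481630, minus strand: GGGGaGGGtGGtGGGGGGGGGtGGGaGG
SRSF1, 3′ UTR, chr17:56079833-56079846, minus strand: GGttGGGGGaGGGG
The HNRNPA0, HNRNPH1 and TRA2B coding examples are built mainly of GG-starting triplets with short gaps and mostly runs of 2 guanines. The HNRNPM match is such a repeat only in its latter part. The HNRNPUL2 3′ UTR match holds several runs of 3 or more guanines. The HNRNPA0 gene is a single exon.

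Most of the protein-coding members were bound. FH-DHX36 formed a cluster on 31 of 45 members (68.9%, against 22.4% of all rows) and FH-DHX36-E335A on 32 (71.1%, against 34.5%). The same 31 members were bound in both (background 21.4%). HNRNPLL, a regulator of splicing in lymphocytes, was the exception, with 7 FH-DHX36-E335A clusters and 243 crosslinked reads and no FH-DHX36 cluster. The other 13 were listed at 0 clusters in both. They comprised SRSF8, SRSF10, HNRNPH2, the 4 HNRNPCL genes, the 4 pseudogene-named rows HNRNPA1P10, HNRNPA1P33, HNRNPA3P1 and HNRNPKP3, the antisense HNRNPU-AS1 and the read-through HNRNPUL2-BSCL2. A listing at 0 means that no cluster was called, not that no read was sequenced. Reads on near-identical copies are uncertain, since the table does not show how they were divided. The coding sequence of HNRNPC is 94.8% identical to HNRNPCL1, and that of HNRNPH1 87.6% identical to HNRNPH2. Of the 963 nt of the HNRNPA1L2 coding sequence, 948 are identical to HNRNPA1. This is 84.7% of the longer HNRNPA1 coding sequence of 1119 nt, a value that counts the length difference as mismatch.

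The members carried 91220 of the FH-DHX36 crosslinked reads, or 4.22% (interval 4.20 to 4.25), and 216660 of the FH-DHX36-E335A reads, or 2.48% (2.47 to 2.49). Their share was thus 1.71 times higher in FH-DHX36. HNRNPA2B1 alone accounted for much of this, and without it the shares were 2.81% and 2.17%, a ratio of 1.30. The hnRNP genes held 3.51% and 1.85% of all reads, the SR genes 0.577% and 0.517%, and the TRA2 genes 0.131% and 0.108%. Of the clusters, the members held a smaller part, 1.61% in FH-DHX36 and 0.822% in FH-DHX36-E335A.

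The members had more clusters than other bound genes, and deeper ones. The median bound member had 9 FH-DHX36 clusters, against 2 for all bound genes, and 15 FH-DHX36-E335A clusters, against 5. It had 194 FH-DHX36 reads per cluster, against 60 for all bound genes, and 337 FH-DHX36-E335A reads per cluster, against 65.8. In each PAR-CLIP, 10 members were among the 100 genes with the most crosslinked reads (22.2% of members, background 0.378%). For FH-DHX36 these were HNRNPA2B1, HNRNPA0, HNRNPM, HNRNPAB, HNRNPD, SRSF1, HNRNPK, HNRNPU, SRSF11 and HNRNPH3. For FH-DHX36-E335A they were HNRNPA2B1, HNRNPA0, HNRNPH3, SRSF1, HNRNPA1, HNRNPR, HNRNPH1, HNRNPD, HNRNPU and HNRNPL. Ranked by clusters, 7 members were in the top 100 for FH-DHX36 (background 0.408%), but HNRNPU alone for FH-DHX36-E335A (background 0.389%). Across the 31 members bound in both, the crosslinked reads of the lines had a Spearman rho of 0.838, as a description over genes that share each library, and their cluster numbers 0.491.

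**Figure D1:**
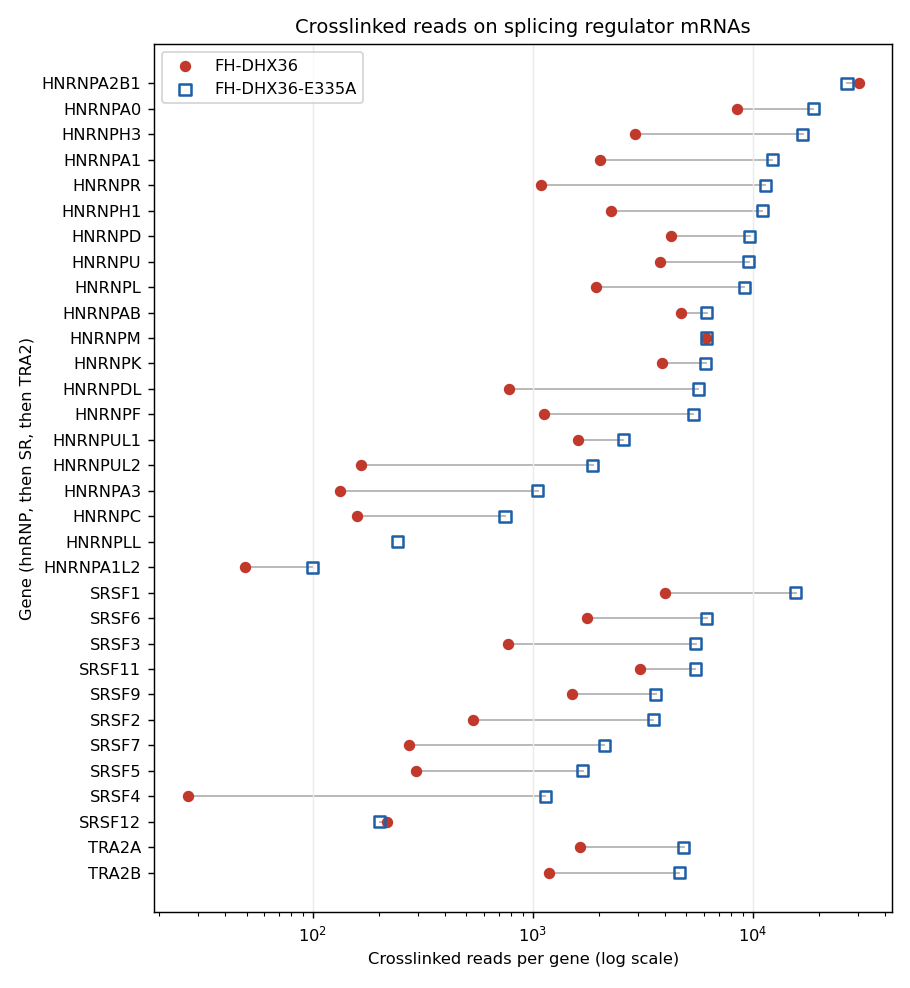
Crosslinked reads (log scale) of the 32 bound members, with FH-DHX36 as filled circles and FH-DHX36-E335A as open squares, ordered within hnRNP, SR and TRA2 genes by the FH-DHX36-E335A value. Each point is 1 pooled value; HNRNPA2B1 and SRSF12 had more reads in FH-DHX36 in spite of its lower depth, and HNRNPM had nearly equal numbers.

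Among the A/B hnRNP mRNAs, HNRNPA2B1 stood out. It encodes an abundant protein that packages nascent RNA and binds UAG-containing sites. The table lists 20 FH-DHX36 clusters with 30421 crosslinked reads, more than on any other gene, and 21 FH-DHX36-E335A clusters with 26851 reads, rank 8. Only 3579 of the FH-DHX36 reads were in the CDS, 694 in the 3′ UTR, 227 in introns and none in the 5′ UTR. The remaining 25921 (85.2%, interval 84.8 to 85.6) lay in clusters outside these 4 annotations, the most such reads of any gene. In FH-DHX36-E335A 21886 reads were outside them (81.5%, interval 81.0 to 82.0), with 3927 in the CDS, 479 in the 3′ UTR and 559 in introns. Such reads thus made up most of the total in both lines, from 5 of 20 and 12 of 21 clusters.

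HNRNPA0, whose product binds AU-rich elements, ranked second among the members in both lines, with 8531 FH-DHX36 reads in 16 clusters and 18906 FH-DHX36-E335A reads in 11 clusters. Its reads were spread over every part of its single exon. In FH-DHX36, 1734 were in the 5′ UTR, 895 in the CDS, 2204 in the 3′ UTR and 3698 outside the annotations. In FH-DHX36-E335A the numbers were 2838, 1503, 6770 and 7795. Per 1000 nt of the canonical transcript this was 9556 FH-DHX36-E335A reads for the 297-nt 5′ UTR, 1637 for the CDS and 903 for the 7498-nt 3′ UTR.

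HNRNPA1, the best studied hnRNP splicing repressor, had 2019 FH-DHX36 reads in 8 clusters and 12290 FH-DHX36-E335A reads in 13. Their place differed between the lines. The 3′ UTR held 1678 of the FH-DHX36 reads and the CDS 341, whereas FH-DHX36-E335A gave 8135 reads in the CDS against 3950 in the 3′ UTR. With 8135 reads, HNRNPA1 ranked 7 of all genes for FH-DHX36-E335A reads in the CDS. HNRNPAB, a related A/B-type protein, had 4707 FH-DHX36 reads in 15 clusters, 3101 of them in the CDS and 952 in the 5′ UTR. In FH-DHX36-E335A it had 6177 reads in 11 clusters, with 2333 in the CDS, 645 in the 5′ UTR and 2928 outside the annotations. HNRNPA3 had 133 and 1054 reads, almost all in the 3′ UTR, and the HNRNPA1 copy HNRNPA1L2 had 49 and 100 reads, all in the CDS.

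The D-type mRNAs were read mainly in the CDS. HNRNPD, also known as AUF1, binds AU-rich elements and promotes decay of many mRNAs. It had 4236 FH-DHX36 reads in 7 clusters, of which 3295 were in the CDS, 470 in an intron and 471 outside the annotations. In FH-DHX36-E335A it had 9700 reads in 15 clusters, with 5062 in the CDS, 670 in the 3′ UTR, 58 in an intron and 3910 outside. Its relative HNRNPDL had 784 and 5650 reads, of which 698 and 3042 were in the CDS.

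The F/H proteins bind guanine tracts themselves. HNRNPH3 had 2923 FH-DHX36 reads in 9 clusters, 1532 of them in the CDS, 181 in the 3′ UTR and 1210 outside the annotations. In FH-DHX36-E335A it had 16873 reads in 19 clusters, of which 13065 were outside the annotations, 2535 within the CDS and 1245 within the 3′ UTR. The part outside the annotations was thus 41.4% (39.6 to 43.2) in FH-DHX36 and 77.4% (76.8 to 78.1) in FH-DHX36-E335A. On HNRNPH1, the 782-nt 3′ UTR held most of the FH-DHX36-E335A reads, 7797 of 11055. Of its 2278 FH-DHX36 reads, 952 were outside the annotations, 803 in the 3′ UTR and 405 in the CDS. HNRNPF had 1123 FH-DHX36 reads, 731 of them in the CDS. Of its 5385 FH-DHX36-E335A reads, 2979 were outside the annotations, 1116 in the 3′ UTR and 931 in the CDS.

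HNRNPM, a regulator of alternative exons, had 6128 FH-DHX36 reads in 9 clusters and 6158 FH-DHX36-E335A reads in 18. As in HNRNPA2B1, most were outside the annotations, 5396 (88.1%, interval 87.2 to 88.8) and 4621 (75.0%, interval 73.9 to 76.1). The CDS held 732 and 1282. HNRNPK, a KH-domain protein that binds cytidine-rich RNA, and HNRNPL, which binds CA repeats, showed the CDS in first place in FH-DHX36 and the 3′ UTR in FH-DHX36-E335A. For HNRNPK, 2369 of 3860 FH-DHX36 reads were in the CDS and 3767 of 6128 FH-DHX36-E335A reads in the 3′ UTR. For HNRNPL, the numbers were 1417 of 1943 in the CDS and 4572 of 9181 in the 3′ UTR, which is 352 nt long. Those 4572 reads came from 1 cluster, whereas 11 of the 15 FH-DHX36-E335A clusters on HNRNPL were in the CDS.

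HNRNPR, a close relative of SYNCRIP, had 1093 FH-DHX36 reads in 9 clusters, 960 of them in the CDS, 58 in the 5′ UTR and 75 in the 3′ UTR. In FH-DHX36-E335A it had 11412 reads in 24 clusters, and a single 5′ UTR cluster held 5962 of them (52.2%, interval 51.3 to 53.2). No other gene of the table had as many FH-DHX36-E335A reads in the 5′ UTR. The 5′ UTR of the canonical transcript is 83 nt long and has no match to the guanine-run pattern. A further 2601 reads were in the CDS, 716 in the 3′ UTR and 2116 outside the annotations.

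HNRNPU, a nuclear scaffold attachment factor, had the most FH-DHX36-E335A clusters of any member. It had 3778 FH-DHX36 reads in 18 clusters, with 1550 in the CDS, 795 in the 3′ UTR and 1433 outside, and 9597 FH-DHX36-E335A reads in 35 clusters, with 3277, 3429 and 2850. Its relative HNRNPUL2 had 165 FH-DHX36 reads in 3 clusters, all in the CDS, and 1873 FH-DHX36-E335A reads in 17 clusters, of which the CDS had 656 and the 3′ UTR 1035. HNRNPUL1 had 1602 and 2578 reads, and HNRNPC, which binds uridine tracts, only 159 and 749.

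Summed over the SR mRNAs, 67.2% of FH-DHX36-E335A reads fell in the 3′ UTR and 14.2% in the CDS. In FH-DHX36 the parts were close, 41.0% and 39.2%. Without SRSF1 the CDS led, with 42.8% against 33.1%, but this lead rested on SRSF11. Of the 4878 FH-DHX36 CDS reads of the SR mRNAs, SRSF11 held 2237, against 542 of their 5112 3′ UTR reads. SRSF1, the founding SR protein, had 3992 FH-DHX36 reads in 15 clusters. Of these 2309 were in the 3′ UTR, 1258 in the CDS, 215 in the 5′ UTR and 210 outside the annotations. In FH-DHX36-E335A it had 15725 reads in 17 clusters, with 12606 from the 3′ UTR, 2218 from the CDS and none from the 5′ UTR. SRSF1 ranked 18 of all genes for FH-DHX36-E335A reads in the 3′ UTR. SRSF6 was bound almost wholly there, with 1655 of 1757 and 6024 of 6176 reads. SRSF2 gave 359 of 533 and 3370 of 3535 3′ UTR reads.

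On several SR mRNAs the 3′ UTR did not lead in at least 1 line. SRSF3, the smallest SR protein, had 772 FH-DHX36 reads in 3 clusters, 709 of them in 1 cluster in the 122-nt 5′ UTR. In FH-DHX36-E335A it had 5517 reads in 18 clusters, and 1 cluster in the 5′ UTR held 3151 of them (57.1%, interval 55.8 to 58.4). This 5′ UTR has 1 match to the guanine-run pattern. SRSF5 had 295 FH-DHX36 reads, 147 in the CDS and 60 outside the annotations, but 1668 of its 1691 FH-DHX36-E335A reads were outside them (98.6%, interval 98.0 to 99.1). SRSF11 gave 2237 of 3080 FH-DHX36 reads in the CDS and 3858 of 5489 FH-DHX36-E335A reads in the 3′ UTR. SRSF9 was read mainly in the CDS in both lines, with 970 of 1510 and 1873 of 3623 reads, compared with 33 and 483 in the 3′ UTR. SRSF4 and SRSF12 had few reads in at least 1 line. SRSF4 had 27 FH-DHX36 reads in 1 cluster and 1139 FH-DHX36-E335A reads in 8, and SRSF12 had 218 in 2 clusters and 202 in 5, none of them in the 3′ UTR. The remaining SR mRNA, SRSF7, had 273 and 2113 reads, of which 124 and 1372 were in the 3′ UTR.

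TRA2A and TRA2B, activators of exon inclusion, were bound to a similar depth but in different places. TRA2A had 1644 FH-DHX36 reads and 4856 FH-DHX36-E335A reads, TRA2B 1187 and 4634. TRA2A was the member with the largest part in introns, 391 reads in FH-DHX36 (23.8%, interval 21.8 to 25.9) and 1202 in FH-DHX36-E335A (24.8%, interval 23.6 to 26.0), each from 2 clusters. TRA2B had none and 50. Both had more reads per 1000 nt in the 5′ UTR than in the CDS in FH-DHX36-E335A, 6108 against 370 for TRA2A and 5136 against 1337 for TRA2B.

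**Figure D2:**
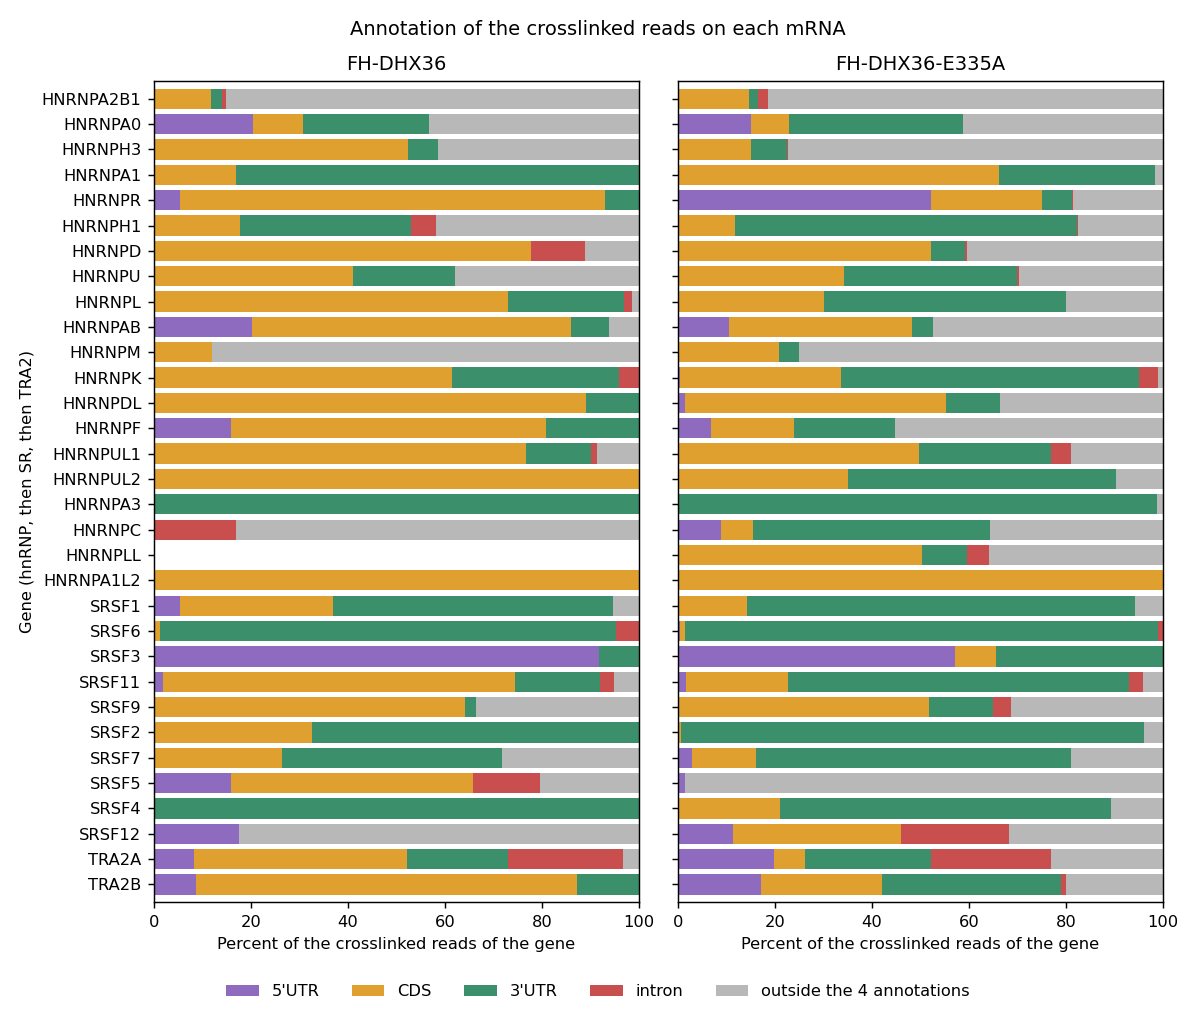
Share of each bound member's crosslinked reads in the 5′ UTR, CDS, 3′ UTR, introns and outside these 4 annotations, as stacked bars in percent, for FH-DHX36 on the left and FH-DHX36-E335A on the right. Grey, reads outside the annotations, leads on HNRNPA2B1 and HNRNPM in both panels; CDS reads are more frequent on the left and 3′ UTR reads on the right.

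Introns took a small part of the reads. Of the members' reads, 1.81% (1.73 to 1.90) in FH-DHX36 and 1.27% (1.23 to 1.32) in FH-DHX36-E335A were intronic, against 8.51% and 4.48% over all genes. Without HNRNPD the first was 1.36%, and without TRA2A the second was 0.734%. No member had more than 50% of its reads in introns, whereas 12.9% of genes with at least 20 FH-DHX36 reads and 5.53% of those with at least 20 FH-DHX36-E335A reads did. An intronic cluster was nevertheless present on 11 of 31 members in FH-DHX36 (background 24.3%) and on 15 of 32 in FH-DHX36-E335A (background 23.9%). These backgrounds were not matched for clusters per gene, whose medians were 9 and 15 on bound members against 2 and 5 on all bound genes. TRA2A ranked 68 and 35 of all genes for intronic reads, HNRNPD 50 in FH-DHX36 and HNRNPA2B1 96 in FH-DHX36-E335A.

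The NXPM score divides depth-scaled reads (RPM) by RNA abundance, and its version for a region is scaled to all reads of that region. For introns it was 123 and 177 on TRA2A, 63.6 and 3.68 on HNRNPD, and 19.7 and 22.8 on HNRNPA2B1, each for FH-DHX36 and then FH-DHX36-E335A. Intronic NXPM was above 100 on TRA2A alone among the members. For the 5′ UTR, HNRNPR had an NXPM of 34.1 in FH-DHX36 and 1785 in FH-DHX36-E335A, and HNRNPA0 213 and 178.

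Reads outside the 4 annotations made up 44.9% (44.5 to 45.2) of the members' FH-DHX36 reads and 35.0% (34.8 to 35.2) of their FH-DHX36-E335A reads, against 16.7% and 21.4% over all genes. The summed share rested on few genes. Without HNRNPA2B1 the shares were 24.7% and 28.4%, and without the 3 members with the most such reads 12.8% and 21.5%. Counted as clusters, 14.1% and 20.4% were outside the annotations, against 9.27% and 11.8% over all genes. The median member had 5.06% and 20.0% of its reads there, whereas the median of all genes with at least 20 reads was 0 in both lines. At least 1 such cluster was present on 18 of 31 members in FH-DHX36 (background 20.9%) and on 29 of 32 in FH-DHX36-E335A (background 45.4%). Here too the backgrounds were not matched for the higher number of clusters on the members. The table does not name what lies there. Clusters at start or stop codons, at boundaries of annotations, and on retained-intron or nonsense-mediated-decay transcripts can fall outside the 4 columns. For HNRNPA2B1 the later GENCODE v44 annotation lists 35 transcripts of the nonsense-mediated-decay class, 7 with a retained intron and 7 coding ones, and for HNRNPA0 1 coding transcript and none of the other classes. HNRNPM has 1 transcript of the decay class and 3 with a retained intron, and HNRNPH3 has 0 of either class. Whether these transcripts held the reads was not tested.

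CDS binding was more frequent on the members than over all genes in FH-DHX36, while in FH-DHX36-E335A the count was close to the background. In FH-DHX36, 14 of 31 members had more than 50% of their reads in the CDS (background 27.3%) and 6 in the 3′ UTR (background 36%). In FH-DHX36-E335A the numbers were 6 of 32 (background 16.7%) and 10 of 32 (background 49.6%). SRSF3 in both lines and HNRNPR in FH-DHX36-E335A had them in the 5′ UTR (backgrounds 8.93% and 3.38%). Among the 100 genes with the most CDS reads, 10 were members in FH-DHX36 and 12 in FH-DHX36-E335A, compared with 4 and 4 for the 3′ UTR (background 0.378% in each case).

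The CDS share of a gene's reads was higher in FH-DHX36 than in FH-DHX36-E335A on 21 of the 31 members bound in both (background 36.9%). The 3′ UTR share was lower on 22 (background 54.1%). HNRNPA1, HNRNPA2B1 and SRSF4 went the other way in both measures. Summed over members, the CDS held 60.8% of exonic FH-DHX36 reads and 36.8% of exonic FH-DHX36-E335A reads. The CDS is 34.7% of the exonic length of the canonical transcripts, so these shares were 1.75 and 1.06 times those given by length. Over all bound genes the ratios were 0.895 and 0.535. For the 3′ UTR they were 0.506 and 0.868 on members against 0.981 and 1.37 over all genes, and for the 5′ UTR 1.76 and 2.16 against 2.16 and 1.08. Counted as clusters, the members' ratios were 1.45 and 1.11 for the CDS, against 0.899 and 0.838 over all genes. For the 3′ UTR they were 0.724 and 0.924 against 0.979 and 1.13, and for the 5′ UTR 1.23 and 1.12 against 2.14 and 1.05. Without HNRNPA2B1 the CDS ratios by reads were 1.68 and 1.00. HNRNPR, SRSF3 and HNRNPA0 together held 11951 of the 15109 FH-DHX36-E335A reads in the members' 5′ UTRs.

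Guanine-run matches were denser in the members' CDS than in that of other bound genes. In members with an FH-DHX36-E335A cluster the CDS held 4.68 matches per 1000 nt, against 2.31 in all genes with such a cluster, and each of the 32 members had at least 1, compared with 86.0% of those genes. In the 3′ UTR the density was 0.955 against 1.60, and 20 of 32 members had a match (62.5%, compared with 71.7%). The 5′ UTR had 7.06 against 6.29, although 18 of 32 members had a match there (56.25%, compared with 63.3%). On the longest transcripts the 5′ UTR order was reversed, with 4.49 matches per 1000 nt against 5.42. Over all 37 members with a canonical transcript, 22 had a 3′ UTR match. With runs of 3 or more guanines, 8 of the 37 had one in the 3′ UTR (21.6%, compared with 14.5% of all genes). None had one in the CDS, where 5.71% of genes with an FH-DHX36-E335A cluster had one. HNRNPA0 had the densest coding matches, 13 or 14.2 per 1000 nt, followed by HNRNPM with 21 or 9.58 per 1000 nt, to which the coding sequences printed for HNRNPM and HNRNPA0 belong. HNRNPUL2 had 15 coding matches, 6.68 per 1000 nt, and 11 matches in the 3′ UTR, while HNRNPA2B1 had 5 in the CDS and none in either UTR. A match is a feature of the letters and does not show a folded quadruplex or a binding site.

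**Figure D3:**
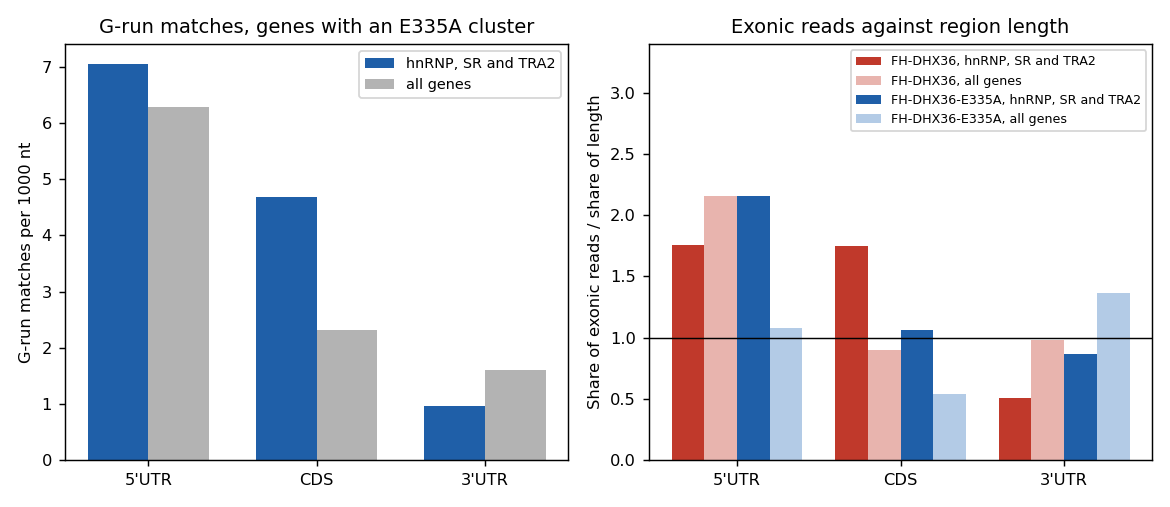
Left, guanine-run matches per 1000 nt of 5′ UTR, CDS and 3′ UTR, in the 32 members and in all genes with an FH-DHX36-E335A cluster. Right, the share of exonic crosslinked reads in each region divided by its share of length, where the line at 1 marks equality. The CDS bars of the members stand above those of all genes in both panels, at 4.68 against 2.31 matches and at ratios of 1.75 and 1.06 against 0.895 and 0.535.

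Between the lines, the members' read shares differed in both directions. Over the 31 with at least 20 reads in each, the median log2 ratio of FH-DHX36-E335A to FH-DHX36 shares was −0.04, with a range of −2.20 to 3.38. Over all 5402 such genes the median was 0.09. The share was higher in FH-DHX36-E335A on 15 members (background 52.8%). It was at least 2-fold higher in FH-DHX36-E335A on 3, namely HNRNPR, HNRNPUL2 and SRSF4 (background 27.3%). It was at least 2-fold higher in FH-DHX36 on 7, namely HNRNPA2B1, HNRNPAB, HNRNPK, HNRNPM, HNRNPUL1, SRSF11 and SRSF12 (background 24.8%).

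The widest gaps were as follows. Reads scaled to the total of each PAR-CLIP are given as RPM. SRSF4 had 12.5 RPM in FH-DHX36 (interval 8.59 to 18.2) and 130 in FH-DHX36-E335A (123 to 138), a log2 ratio of 3.38 that rests on 27 FH-DHX36 reads. HNRNPUL2 had 76.4 and 214 RPM, a log2 ratio of 1.49. HNRNPR had 506 (477 to 537) and 1304 (1280 to 1328), a log2 ratio of 1.37 that was 0.38 when reads in the 5′ UTR were left out. HNRNPA2B1 had 14081 and 3068 RPM, a log2 ratio of −2.20. It was −1.88 over reads in the 4 annotations. SRSF12 had 101 and 23.1, a log2 ratio of −2.13, which became −0.16 over reads in the 4 annotations (38 and 138 reads). HNRNPM had 2836 and 704, a log2 ratio of −2.01, which became −0.95. On some other members the ratio widened or changed direction over reads in the 4 annotations. It went from −1.63 to −2.46 on HNRNPAB, and from 0.50 to −5.37 on SRSF5 (235 and 23 reads).

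**Figure D4:**
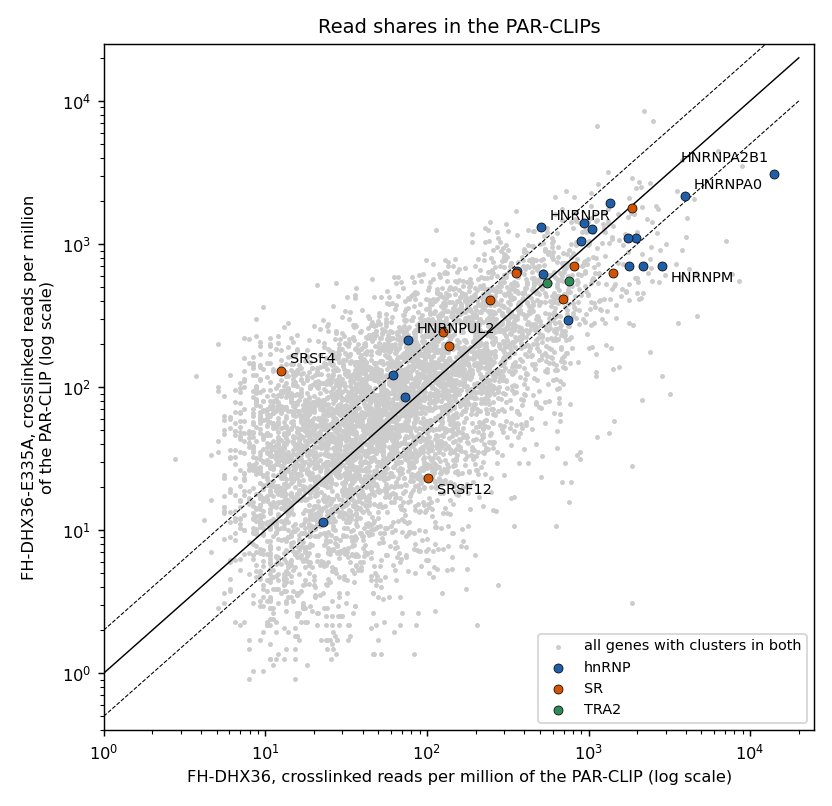
Crosslinked reads scaled to the PAR-CLIP total (RPM) of FH-DHX36 (horizontal) and FH-DHX36-E335A (vertical), both on log scales, for all genes with clusters in both (grey) and the members (coloured by family). The solid line marks equal shares and the dashed lines a 2-fold difference. HNRNPA2B1 lies farthest to the right at 14081 and 3068, and SRSF4 lies above the upper dashed line at 12.5 and 130.

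Relative to RNA abundance, the members were less prominent. Their median NXPM was 18.5 in FH-DHX36 and 11.2 in FH-DHX36-E335A, against 7.76 and 5.61 over all bound genes. The families differed, with medians of 21.3 and 14.2 for the hnRNP genes and 31.2 and 24.9 for the 2 TRA2 genes. The 10 bound SR genes had 4.71 and 7.71, so in FH-DHX36 their median was below that of all bound genes. The abundance recovered from the table, RPM divided by NXPM, had a median of 40.2 for members bound in FH-DHX36, against 7.36 for all bound genes. No member ranked in the top 100 by NXPM in either line (background 0.378%). An NXPM above 100 was reached by HNRNPA2B1 in FH-DHX36, at 225 (background 1.52%). In FH-DHX36-E335A it was reached by HNRNPR at 132, HNRNPH3 at 127 and HNRNPUL2 at 125 (background 1.79%). Their abundances were 9.88, 15.2 and 1.72, under the members' median. HNRNPU and SRSF1 followed with 56.8 and 56.7. In FH-DHX36 the same 5 mRNAs had 51.2, 89.3, 44.5, 90.6 and 58.4.

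The low end held mostly abundant mRNAs and some less abundant ones. SRSF9, at an abundance of 343, had an NXPM of 2.04 and 1.21, and HNRNPA1, at 318, had 2.94 and 4.42. SRSF2, at 136, had 1.81 and 2.96, HNRNPC, at 105, had 0.702 and 0.816, and SRSF7, at 75.8, had 1.67 and 3.18. SRSF4, at an abundance of 18.8, had the lowest FH-DHX36 NXPM, 0.663, and 6.91 in FH-DHX36-E335A. HNRNPA1L2, at 8.49, had 2.67 and 1.34, and HNRNPLL, at 5.81, had 4.78 in FH-DHX36-E335A. HNRNPA1 was thus among the 100 genes with the most FH-DHX36-E335A reads but below the median NXPM of all bound genes. Over the 31 members, NXPM in the lines had a Spearman rho of 0.885, a description in which both values share the abundance they are divided by.

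**Figure D5:**
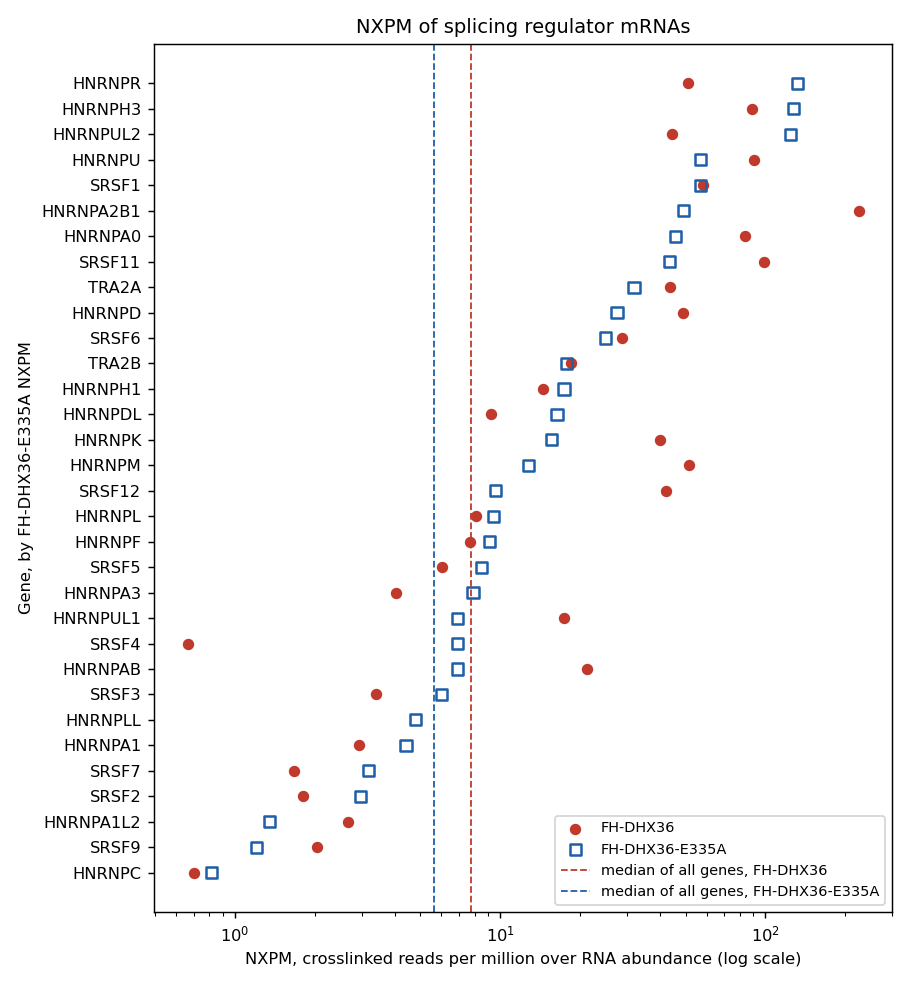
NXPM (log scale) of the bound members in FH-DHX36 (filled circles) and FH-DHX36-E335A (open squares), ordered by the latter, with dashed lines at the median of all bound genes, 7.76 and 5.61. HNRNPR, HNRNPH3 and HNRNPUL2 lead in FH-DHX36-E335A, HNRNPA2B1 leads in FH-DHX36, and HNRNPC has the lowest FH-DHX36-E335A value at 0.816.

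Splicing regulators not taken by the symbol rule, among them further hnRNP proteins, had fewer reads per cluster in the median. Of 13 hnRNP proteins listed under other symbols, 12 were bound in each line, with 1.08% of FH-DHX36 and 0.513% of FH-DHX36-E335A reads. Among them were SYNCRIP (1782 and 13080 reads) and the poly(C)-binding PCBP2 (9066 and 5875). Of 22 SR-related proteins and SR protein kinases, 16 and 20 were bound, with 0.380% and 0.362% of reads, led by SRRM2 (2287 and 7077), SON (998 and 5078) and PPIG (475 and 3037). Of 25 sequence-specific regulators of other families, 18 and 20 were bound, with 0.801% and 0.539%, led by SFPQ (1284 and 7130), KHSRP (7474 and 6387) and NONO (2276 and 4864). The median reads per cluster of the lists were 73.3, 69.9 and 78.2 in FH-DHX36, compared with 194 for the members. In FH-DHX36-E335A they were 150, 68.7 and 117, compared with 337. The lists were also less abundant, with FH-DHX36 medians of 22.1, 9.53 and 12.8, compared with 40.2. Relative to abundance the members did not stand apart. The median NXPM of the lists was 14.9, 15.4 and 21.8 in FH-DHX36, compared with 18.5 for the members. In FH-DHX36-E335A it was 8.91, 14.9 and 22.0, compared with 11.2. At least 2-fold higher read shares in FH-DHX36-E335A and in FH-DHX36 were found on 3 and 4 of 12, 3 and 4 of 16, and 7 and 3 of 18 genes of these lists.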

How the data were processed

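PAR-CLIP was done on 2 replicates per cell line. The authors mapped reads to hg19, called clusters with PARalyzer within PARpipe at default settings and assigned them to GENCODE v19 categories; versions are not given in the sources used here, apart from bcl2fastq 2.17.1 in the submitters' processing notes. The deposited table holds raw counts of clusters and crosslinked reads per gene, pooled by the authors to 1 value per line. NXPM is a score that the authors made by dividing depth-scaled reads (RPM) by RNA abundance. No column belonged to another series.

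Reads outside the 4 annotations are the total minus the sum of the 5′ UTR, CDS, 3′ UTR and intron columns. Ratios used genes with at least 20 reads in each line. The code was tested on simulated data. Lengths and guanine runs came from canonical transcripts of GENCODE v44 lifted to GRCh37, for 37 members. Software was Python 3.11.15, pandas 2.3.3, numpy 2.4.6, scipy 1.17.1 and matplotlib 3.10.9.

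Full values were given for members among the 5 with the most reads in either line, the 5 with the highest FH-DHX36-E335A NXPM at an abundance of at least 1, those mainly intronic, the 3 widest ratios in each direction, and members bound in 1 line with at least 100 reads. Other members were chosen after their values were seen. Of each further list, the 3 genes with the most FH-DHX36-E335A reads were to be named, of which 1 is not reported here. The members and lists were chosen with earlier results of these data known. No test was made, as edgeR needs counts per replicate.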

Additional observations from a re-analysis of the deposited data

How the results depend on the processing

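No paired analysis was possible because the table has 1 pooled value per gene and cell line, and leaving out a replicate or a count model could not be run for the same reason. Alternatives that leave out a named gene or the 3 leading members, use clusters or exonic reads for the members' share, the ranks and the shares against length, or rank by NXPM were chosen after seeing the data. Of 60 values under an alternative, 27 stayed within the limit set for them and 33 moved. The limit was the counting interval for a share, and 1.5 times for a count. For a median NXPM it was the span between the members' quartiles, a wide limit. Every share moved out of its counting interval, so the values that stayed were counts and median NXPM. With clusters in place of crosslinked reads, the values for FH-DHX36 and FH-DHX36-E335A were 1.61% and 0.822% for the members' share of all signal, 34.9% and 41.6% for the 3′ UTR share, 5.95% and 4.85% for the intron share, 50.2% and 38.6% for the exonic CDS share, 14.1% and 20.4% outside the annotations, and 1 member in the top 100 for FH-DHX36-E335A. With the 4 annotations as denominator, the 3′ UTR share was 29.5% and 51.3%, and the intron share 3.29% and 1.96%. Exonic reads gave members' shares of 3.01% and 2.13%, and 6 members in the top 100 for FH-DHX36-E335A. NXPM gave 0 and 0. Without HNRNPA2B1, the members' share was 2.81% and 2.17%, the exonic CDS share 58.6% and 35.1%, and the share outside the annotations 24.7% and 28.4%, or 12.8% and 21.5% without the 3 leading members. Without SRSF1 the 3′ UTR share was 14.4% and 29.7%. Without HNRNPD the FH-DHX36 intron share was 1.36%, and without TRA2A the FH-DHX36-E335A one 0.734%. Runs of 3 guanines left 8 members with a 3′ UTR match. Scaling by the median of ratios, a shift of 0.12 on the log2 scale, gave 3 members at least 2-fold higher in FH-DHX36-E335A and 8 in FH-DHX36. The cause of these changes was not tested. Low counts limit SRSF4 and HNRNPA1L2 in FH-DHX36, at 27 and 49 reads.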
